A study of Homo sapiens with 6 samples.

Results

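The transcripts of 10 glycolytic enzymes were followed in PC3, a human prostate cancer cell line, and in PC3-DR, a line made from it. They were chosen by identifier, 1 deposited transcript for each gene, and all 10 were found among the 102731 transcripts listed for mRNA, while the lncRNA table listed 0 of them. The pairing of these 10 identifiers with gene symbols came with the selection rule, and no table used here pairs other transcript identifiers with genes. PC3 is labelled docetaxel sensitive. PC3-DR is labelled docetaxel resistant and was selected from PC3 with docetaxel, a taxane that stabilises microtubules, first in 5 cycles at 4 and 8 nM for 48 h, then in 12 cycles at 8 and 12 nM, then in continuous drug from 10 nM in steps of 5 nM to 50 nM. The resistant cells were held at 40 nM for 1 month, and the labels do not say whether drug was present at harvest or whether the line is 1 clone. Both were grown in DMEM with 10% serum. Total RNA of 3 libraries per line was sequenced, and the labels call these parallel samples without naming separate cultures, so that p-values measure only the spread between these libraries, which may be technical.

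Glycolysis splits glucose into pyruvate. In its preparatory phase ATP is spent and the sugar is cut into triose phosphates, and in its payoff phase these are oxidised to pyruvate with a net gain of ATP and NADH. Lactate dehydrogenase then turns pyruvate into lactate and restores NAD+, a step that many tumour cells run even with oxygen at hand. Several of these genes are textbook targets of the hypoxia-inducible factor HIF and of MYC.

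Upstream sequences are shown for 6 of the members, the 4 payoff enzymes ENO1, PGK1, PGAM1 and PKM and the 2 lactate dehydrogenase subunits, so that their letters can be compared. RefSeq promoter windows (GRCh38.p14) were matched by symbol for 10 of 10 genes, 14 windows in all, and the 250 bases before each start were searched on both strands for ACGTG and GCGTG, the core letters of the HIF response element, of which the E-box CACGTG is an overlapping case. At least 1 match lay in 10 of the 14 windows, which belong to 7 genes (ALDOA, ENO1, GAPDH, GPI, LDHA, PGK1 and TPI1), and in 43.2% of all 35116 windows. CACGTG itself lay in 3 of the 14 windows, 1 each of ALDOA, GAPDH and LDHA, and in 6.34% of all windows. The printed windows are ENO1 at chr1:8878687-8878936 (minus strand), PGK1 at chrX:78103998-78104247 (plus strand), PGAM1 at chr10:97427568-97427817 (plus strand), PKM at chr15:72231191-72231440 (minus strand), the first of the LDHA windows at chr11:18394313-18394562 (plus strand) and LDHB at chr12:21657843-21658092 (minus strand). Those of ENO1, PGK1, LDHA and LDHB end where the RefSeq gene begins, and those of PGAM1 and PKM do not. Capitals mark the matches, and a match is a description of letters and not a shown binding site. The windows of ENO1, PGK1 and LDHA held 2, 3 and 5 matches, and those of PGAM1, PKM and LDHB held none. Each CACGTG counts as 2 overlapping matches, 1 on each strand. In the LDHA window 2 capital stretches are CACGTG, so its 5 matches lie in 3 stretches, the same number as in PGK1. No relation of these letters to the levels was tested.
ENO1: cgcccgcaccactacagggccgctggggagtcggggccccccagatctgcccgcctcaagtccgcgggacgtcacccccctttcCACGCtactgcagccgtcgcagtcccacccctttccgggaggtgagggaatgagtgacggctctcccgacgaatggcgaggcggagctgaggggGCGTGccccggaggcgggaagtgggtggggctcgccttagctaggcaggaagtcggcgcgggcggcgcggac
PGK1: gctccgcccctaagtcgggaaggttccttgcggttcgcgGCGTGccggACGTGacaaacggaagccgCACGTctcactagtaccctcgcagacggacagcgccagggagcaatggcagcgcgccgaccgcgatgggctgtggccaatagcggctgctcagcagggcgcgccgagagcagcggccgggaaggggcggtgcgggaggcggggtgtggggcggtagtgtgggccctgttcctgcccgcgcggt
PGAM1: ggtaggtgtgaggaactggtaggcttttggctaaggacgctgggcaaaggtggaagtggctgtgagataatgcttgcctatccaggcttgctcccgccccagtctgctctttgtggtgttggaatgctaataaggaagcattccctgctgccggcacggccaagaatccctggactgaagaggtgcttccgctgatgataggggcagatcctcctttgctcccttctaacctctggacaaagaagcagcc
PKM: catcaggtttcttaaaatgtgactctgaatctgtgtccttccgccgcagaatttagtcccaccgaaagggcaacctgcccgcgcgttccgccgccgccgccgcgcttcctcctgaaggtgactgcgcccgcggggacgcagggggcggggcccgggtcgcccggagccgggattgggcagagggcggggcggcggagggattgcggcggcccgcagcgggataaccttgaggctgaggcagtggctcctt
LDHA: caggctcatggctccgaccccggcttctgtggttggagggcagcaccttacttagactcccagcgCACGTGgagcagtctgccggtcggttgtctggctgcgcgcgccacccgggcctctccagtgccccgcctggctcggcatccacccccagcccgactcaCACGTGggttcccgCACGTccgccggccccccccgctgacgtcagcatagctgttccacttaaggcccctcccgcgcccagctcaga
LDHB: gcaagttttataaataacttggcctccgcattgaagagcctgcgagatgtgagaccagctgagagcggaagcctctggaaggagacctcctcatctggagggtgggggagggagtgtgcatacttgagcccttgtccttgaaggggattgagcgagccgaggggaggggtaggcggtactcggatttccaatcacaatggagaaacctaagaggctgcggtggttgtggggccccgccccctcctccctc

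Levels are in FPKM, reads per kilobase of transcript and per fixed share of a library total, which allows levels of different genes to be compared. Library totals inferred from the values lay between 14410000 and 16186000 in 5 libraries and at 43153000 in PC3-DR replicate 1. That library had a median of 0.676 FPKM over the 24937 tested transcripts, against between 1.32 and 1.67 FPKM in the other 5. PC3 replicate 3 stood apart as well, with 48.3% of all mRNA-table transcripts at 0, against between 31.4% and 37.7% in the others, and with 354 tested transcripts at 5 FPKM or more, against between 794 and 1253. Differences between the lines and ratios of transcripts are therefore given with and without these libraries, and correlations only over all 6. Each row is 1 transcript of its gene, so reads given to other transcripts of the gene are not in these values. In bulk RNA, fewer cells with a transcript and less of it per cell cannot be told apart. RefSeq names 65 pseudogenes after GAPDH, 13 after PGAM1 and between 0 and 6 after each of the other 8 genes, and the handling of reads shared with such copies is not stated in any label. The cell line label was not checked against marker transcripts, since their identifiers are unpaired.

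The transcripts listed for the preparatory enzymes had the lowest levels of the 10 members. Other transcripts of these genes were not examined, so the values of GPI and ALDOA, and the preparatory share given further on, describe the listed transcripts and not the genes or enzymes. GPI (ENST00000356487), glucose-6-phosphate isomerase, was read at most once per library: 1 read in PC3 replicate 1 (0.0303 FPKM), in PC3-DR replicate 1 (0.0114 FPKM) and in PC3-DR replicate 3 (0.0314 FPKM), and 0 reads in the other 3. A count of 0 allows up to 3 reads, or between 0.0919 and 0.102 FPKM in those 3 libraries, counting error only, so no difference was detectable at this depth.

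ALDOA (ENST00000338110), aldolase A, which cuts fructose-1,6-bisphosphate, was listed at 0, 0 and 0.0581 FPKM in PC3 (replicates 1 to 3, the order used throughout), compared with 6.90, 0.914 and 0 FPKM for PC3-DR. Behind these values stood 0, 0 and 2 reads in PC3 and 712, 35 and 0 reads in PC3-DR. The groups overlapped, because PC3-DR replicate 3 held 0 reads like the PC3 libraries, where 0 allows up to 0.0776 and 0.0858 FPKM in PC3 replicates 1 and 2 and 0.0804 FPKM in PC3-DR replicate 3. Neither GPI nor ALDOA reached 1 FPKM in 3 or more libraries, the filter used, so both stayed out of the test. TPI1 (ENST00000229270), triosephosphate isomerase, stood at 3.22, 2.99 and 0.236 FPKM in the PC3 libraries, compared with 6.6, 1.52 and 5.34 FPKM for PC3-DR. Its lowest value rested on 6 reads in PC3 replicate 3 and its highest on 502 reads in PC3-DR replicate 1, and PC3-DR replicate 2 lay below PC3 replicates 1 and 2.

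By the median over the 6 libraries the highest members were ENO1, GAPDH and PKM, all of the payoff phase. ENO1 (ENST00000234590), enolase 1, which makes phosphoenolpyruvate, stood at 76.3, 53.3 and 19.7 FPKM in the PC3 libraries, compared with 137.0, 71.4 and 82.2 FPKM for PC3-DR. Only PC3 replicate 1 reached into the PC3-DR range. PKM (ENST00000335181), pyruvate kinase, which makes pyruvate and ATP, stood at 18.7, 14.4 and 3.98 FPKM in the PC3 libraries, compared with 39.6, 23.4 and 22.6 FPKM for PC3-DR. It was the only member whose groups did not overlap, and the gap between the nearest libraries, 18.7 and 22.6 FPKM, was smaller than the SD of either line (7.59 FPKM among PC3 and 9.63 FPKM among PC3-DR libraries). All PC3-DR libraries also lay above all PC3 libraries in 4.11% of all tested transcripts. The share was 15.9% among the 794 that, like PKM, reached 5 FPKM in 3 or more libraries.

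PGAM1 (ENST00000334828), phosphoglycerate mutase, stood at 12.5, 10.3 and 3.64 FPKM in the PC3 libraries, compared with 22.6, 11.9 and 13.0 FPKM for PC3-DR. PGK1 (ENST00000373316), phosphoglycerate kinase, which makes the first ATP of the payoff phase, stood at 8.58, 7.51 and 3.00 FPKM in the PC3 libraries, compared with 14.6, 7.40 and 8.31 FPKM for PC3-DR. In both, PC3-DR replicate 1 was highest, PC3 replicate 3 was lowest and the other 4 libraries lay close together regardless of line. GAPDH (ENST00000229239), the dehydrogenase that yields NADH, stood at 99.0, 24.9 and 14.9 FPKM in the PC3 libraries, compared with 64.8, 30.4 and 39.3 FPKM for PC3-DR. Here the highest library was PC3 replicate 1, so the PC3 mean of 46.3 ± 45.9 FPKM lay slightly above the PC3-DR mean of 44.8 ± 17.8 FPKM (SD, n = 3 per line), although the fitted log2 difference was above 0.

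The lactate dehydrogenase subunits followed other patterns. LDHA (ENST00000422447), the subunit that is typical of glycolytic tissue, stood at 21.3, 6.82 and 6.15 FPKM in the PC3 libraries, compared with 12.1, 8.13 and 21.6 FPKM for PC3-DR, with 1 library of each line near 21 FPKM. LDHB (ENST00000350669), the subunit that is typical of heart, stood at 12.1, 17.9 and 17.0 FPKM in the PC3 libraries, compared with 7.58, 20.7 and 24.2 FPKM for PC3-DR. Unlike the other 7 tested members, LDHB was not lowest in PC3 replicate 3 but in PC3-DR replicate 1, where 5 of the 8 tested members were highest.

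**Figure D1:**
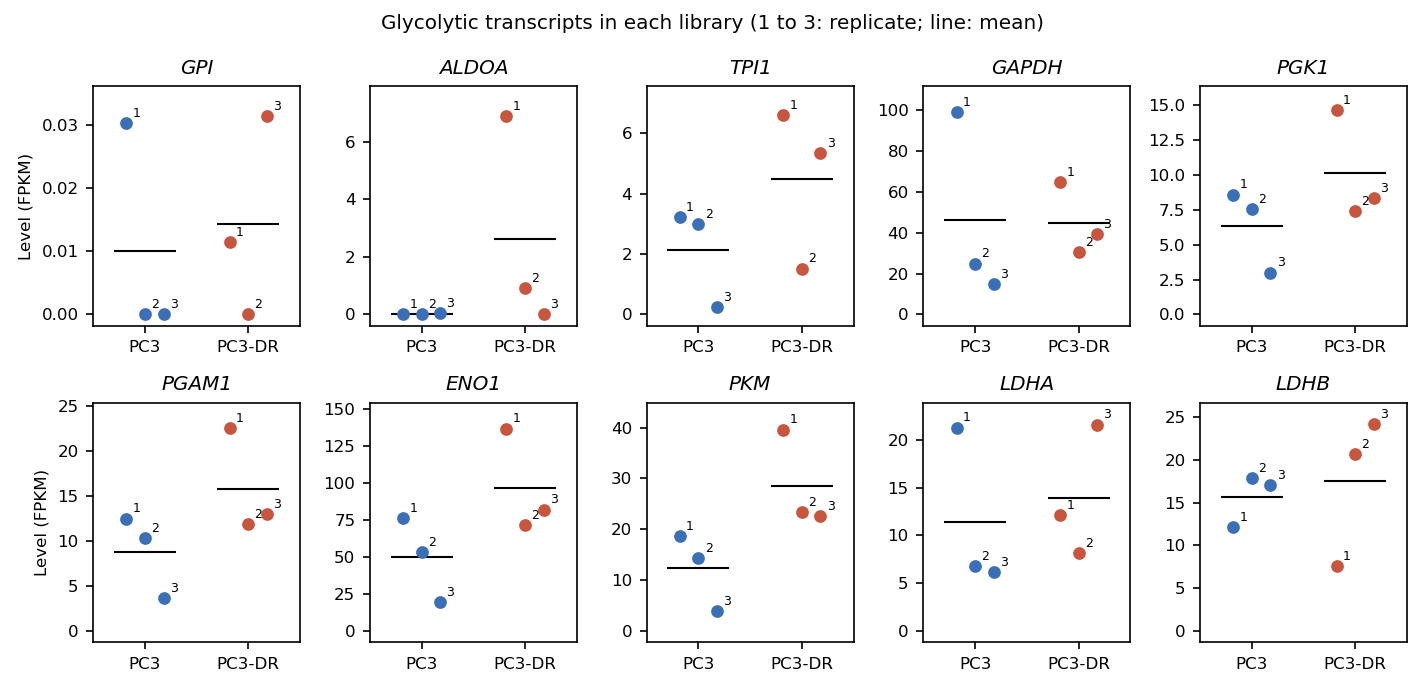
Level in FPKM (vertical axis, own scale per panel) of the 10 glycolytic transcripts in the 3 PC3 and 3 PC3-DR libraries; points are libraries with their replicate number and lines are group means. PKM is the only member whose PC3-DR libraries, between 22.6 and 39.6 FPKM, all lie above its PC3 libraries, between 3.98 and 18.7 FPKM. The same order holds in 4.11% of all tested transcripts and in 15.9% of the 794 that reached 5 FPKM in 3 or more libraries.

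Ordered by the median over 6 libraries, ENO1 (73.8 FPKM) came first, then GAPDH (34.8), PKM (20.7), LDHB (17.5), PGAM1 (12.2), LDHA (10.1), PGK1 (7.91), TPI1 (3.11), ALDOA (0.029) and GPI (0.00568 FPKM). ENO1 was above GAPDH in 5 of 6 libraries, GAPDH above PKM in 6 of 6 and PGK1 above TPI1 in 6 of 6. PKM and LDHB, and likewise PGAM1 and LDHA, changed places in 3 of 6 libraries, and LDHB was above PGAM1, and LDHA above PGK1, in 4 of 6. TPI1 was above ALDOA in 5 of 6. In every library at least 92.1% of tested transcripts were lower than each of the 7 members GAPDH, PGK1, PGAM1, ENO1, PKM, LDHA and LDHB.

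PGAM1, PGK1 and PKM varied less relative to ENO1 than the other members did. A ratio of 2 transcripts within a library does not depend on how libraries are scaled. PGAM1 was 16.4%, 19.4% and 18.5% of ENO1 in PC3 replicates 1 to 3 and 16.5%, 16.6% and 15.8% in PC3-DR replicates 1 to 3, so the highest ratio was 1.22 times the lowest, while ENO1 itself varied 6.96-fold. PGK1 lay between 10.1% and 15.2% of ENO1 (1.5-fold) and PKM between 20.2% and 32.7% (1.62-fold). PGK1 had its 3 highest ratios in PC3. PKM had its 3 highest in PC3-DR, at 28.9%, 32.7% and 27.5%, against 24.6%, 27.1% and 20.2% in PC3, with the nearest libraries at 27.1% and 27.5%. How often the ratio of another transcript to ENO1 parts the lines was not counted. These 2 orders were not tested and are not read as differences between the lines.

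The ratios of the other members to ENO1 varied more. GAPDH was between 42.5% and 75.5% of ENO1 in 5 libraries and 130.0% in PC3 replicate 1. LDHA ranged from 8.81% to 31.2% of ENO1, TPI1 from 1.20% to 6.5%, and LDHB from 5.53% in PC3-DR replicate 1 to 86.2% in PC3 replicate 3, a 15.6-fold range. Among 671 other transcripts that reached 5 FPKM in 3 or more libraries and above 0 in all 6, a ratio to ENO1 as even as that of PGAM1 was found for 0.745%, of PGK1 for 9.09%, of PKM for 13.0%, of LDHA for 59.6% and of LDHB for 85.1%. These shares rest in large part on the 2 libraries that stand apart. Over the other 4 libraries ENO1 varied 1.54-fold, and the highest ratio to ENO1 was 1.22 times the lowest for PGAM1, 1.33 times for PKM, 1.4 times for PGK1, 2.12 times for LDHB, 2.45 times for LDHA and 3.05 times for both GAPDH and TPI1. Among the same 671 other transcripts a ratio as even was then found for 10.6% (PGAM1), 21.9% (PKM), 30.0% (PGK1), 71.4% (LDHB), 78.1% (LDHA) and 85.7% (GAPDH). Without those 2 libraries LDHB thus ranged less than LDHA, GAPDH and TPI1. As a description over 6 libraries, Pearson correlations of log2(FPKM + 1) among ENO1, PGAM1, PGK1 and PKM lay between 0.963 and 0.995, and those of LDHB with each of the other 7 tested members between -0.571 and -0.108. These correlations share the depth and the low or high state of PC3 replicate 3 and PC3-DR replicate 1, and 4 libraries are too few to give them without that pair.

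**Figure D2:**
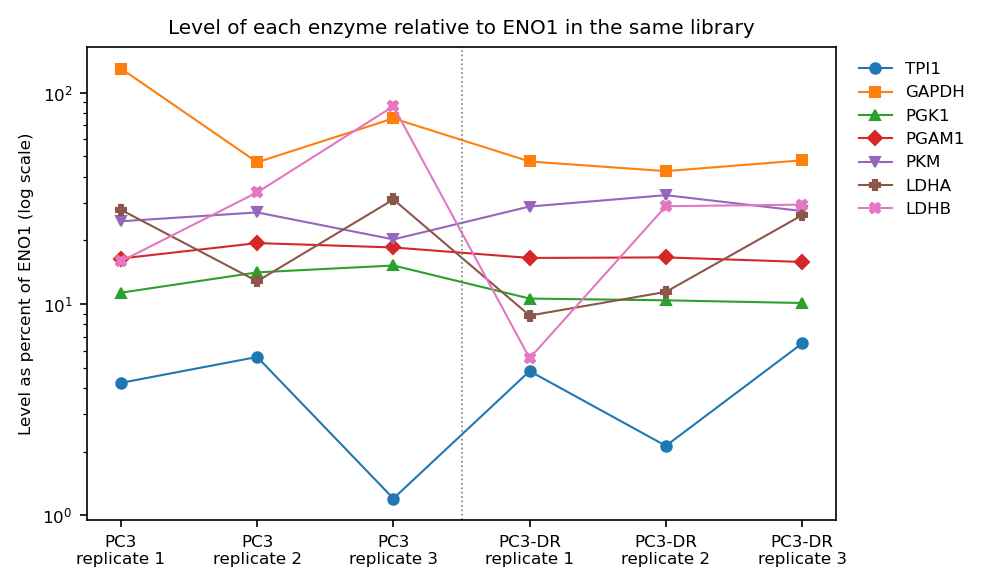
Level of 7 enzymes as a percent of ENO1 in the same library (vertical axis, log scale) across the 6 libraries; lines only join the points of 1 gene and imply no order of replicates. Over the 6 libraries the ratio varies 1.22-fold for PGAM1, 1.5-fold for PGK1 and 1.62-fold for PKM. LDHB swings from 5.53% in PC3-DR replicate 1 to 86.2% in PC3 replicate 3 and lies between 15.9% and 33.7% in the other 4.

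The comparison asked which of these transcripts differ between resistant and sensitive cells. None passed: 0 of the 8 tested members had an adjusted p under 0.05 in limma on log2(FPKM + 1), where 1 of all 24937 tested transcripts, or 0.00401%, did. At an unadjusted p under 0.05 limma gave 1 of the 8, PKM, against 6.1% of all tested, and voom on recovered reads gave 0 of 8 adjusted, as for 0 of all 24928 tested there, and 2 of 8 unadjusted, against 9.33% of all. With the replicate number as a block limma gave 0 of 8 adjusted, as for 0 of all tested, and 2 of 8 unadjusted, against 6.85% of all. Without PC3 replicate 1 limma gave 0 of 8 adjusted, where 1 of all tested passed, and 4 of 8 unadjusted, against 7.15% of all. The median difference there was -0.12 over all tested transcripts and 0.99 among the 794 that reached 5 FPKM in 3 or more libraries. Without any other single library it gave 0 or 1 of 8 unadjusted, against between 4.52% and 7.68% of all. The remaining alternatives also gave 0 or 1 unadjusted. The filter of 5 FPKM gave 0 of 7, against 7.18% of the 794, and quantile normalization 0 of 8, against 6.86% of all. Without both PC3 replicate 3 and PC3-DR replicate 1 limma gave 0 of 8, against 4.86%. PKM had a fitted difference of 1.32 ± 0.55 (SE) on that log2 scale, PC3-DR minus PC3, with a 95% interval from 0.10 to 2.53 (unadjusted p = 0.0368, adjusted p = 0.791 in limma). For ENO1 the difference was 1.09 ± 0.56 (SE), with an interval from -0.16 to 2.34 (adjusted p = 0.848 in limma). PGAM1 had 0.86 ± 0.49, TPI1 0.85 ± 0.58, PGK1 0.63 ± 0.45, LDHA 0.37 ± 0.53, GAPDH 0.34 ± 0.66 and LDHB 0.02 ± 0.48 (SE), with adjusted p between 0.862 and 0.992 in limma. The intervals of LDHA (-0.82 to 1.56) and LDHB (-1.04 to 1.09) include more than a doubling in either direction for LDHB and upward for LDHA, so these data do not show equal levels.

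The direction of the 8 fitted differences, all above 0, was common among transcripts of similar level. Over all tested transcripts 39.9% had a difference above 0 and the median was -0.13, while the members' median was 0.74. Among the 794 transcripts that reached 5 FPKM in 3 or more libraries, however, 84.1% were above 0 and the median was 0.71, and the 7 members in that group (all tested ones but TPI1) were all above 0 with a median of 0.63. All PC3-DR libraries lay above all PC3 libraries in 1 of 8 members (PKM), in 4.11% of all tested transcripts and in 15.9% of the 794. Without PC3 replicate 3 the members' median was 0.26 and that of the 794 was 0.31. Without PC3-DR replicate 1 both medians were near 0.5, at 0.52 and 0.51. Without both libraries 5 of 8 members stayed above 0, with a median of 0.12 against 0.13 for the 794, and PKM had a difference of 0.46, ENO1 of 0.26, PGAM1 of 0.12, PGK1 of -0.03, TPI1 of -0.04 and GAPDH of -0.52. Values were also rescaled by the median of ratios over 117 transcripts with at least 5 FPKM in every library, ENO1, GAPDH, LDHA and LDHB among them. The factors were 0.53 in PC3 replicate 3 and 1.96 in PC3-DR replicate 1. This gave 4 of 8 members above 0 and a member median of 0.07, against a median of -0.5 over all tested transcripts. Such factors bring transcripts of high level near 0 by construction, so the member median there is no separate result. The part of general shifts of those libraries in the members' differences was not tested beyond these values.

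**Figure D3:**
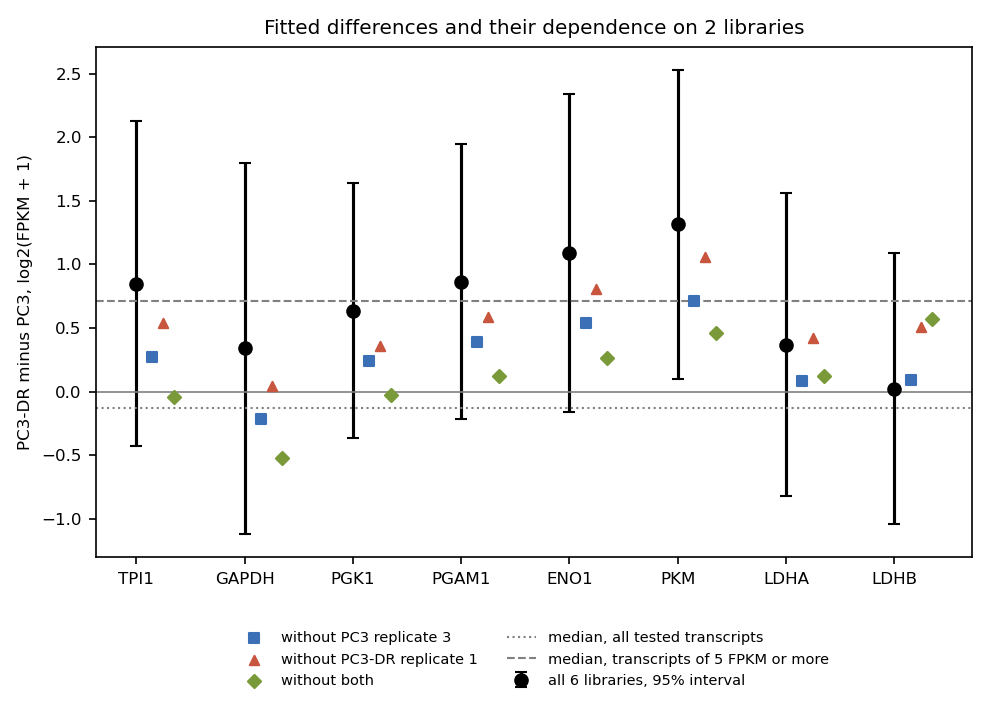
Fitted difference PC3-DR minus PC3 on the log2(FPKM + 1) scale (vertical axis) for the 8 tested members, with 95% intervals over 6 libraries and with the values without PC3 replicate 3, without PC3-DR replicate 1 and without both; the dashed line is the median of the 794 transcripts at 5 FPKM or more (0.71) and the dotted line that of all tested (-0.13). Only the PKM interval, from 0.10 to 2.53, lies above 0.

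The summed level of the 10 transcripts came to 252, 138 and 68.6 FPKM for the PC3 libraries, compared with 312, 176 and 217 FPKM for PC3-DR, a mean of 153 ± 92.4 and 235 ± 69.8 FPKM (SD, n = 3 per line). The groups overlapped and the difference of 81.9 FPKM was smaller than the SD in PC3 (two-sided exact permutation p = 0.3, adjusted over 3 such measures 0.45, where the smallest p that 3 against 3 allows is 0.1). Without PC3 replicate 3 it was 39.8 FPKM, without PC3-DR replicate 1 it was 43.4 FPKM, without PC3 replicate 1 it was 131 FPKM, and without both PC3 replicate 3 and PC3-DR replicate 1 it was 1.26 FPKM. ENO1 alone held between 28.7% and 44.0% of the sum. The 10 transcripts together held between 0.0544% (PC3 replicate 3) and 0.224% (PC3-DR replicate 1) of all mRNA-table FPKM.

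LDHB made up 36.4%, 72.5% and 73.4% of LDHA plus LDHB in PC3 and 38.6%, 71.8% and 52.9% in PC3-DR. The means were 60.7% ± 21.1 and 54.4% ± 16.7 (SD, n = 3 each), and the difference of -6.34 percentage points was far inside the spread (two-sided exact permutation p = 0.8, adjusted 0.8). Both lines held a low library (36.4% and 38.6%) and a high one (73.4% and 71.8%), so the balance of the subunits varied more within a line than between lines. The listed transcripts of GPI, ALDOA and TPI1 made up 1.49%, 2.63% and 0.647% of the preparatory and payoff sum in PC3 and 4.62%, 1.66% and 3.14% in PC3-DR (means 1.59% ± 0.996 and 3.14% ± 1.48, SD, n = 3 each, two-sided exact permutation p = 0.2, adjusted 0.45). That difference of 1.55 percentage points was 0.811 without PC3-DR replicate 1, the library with most ALDOA reads, and 0.34 without that library and PC3 replicate 3.

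**Figure D4:**
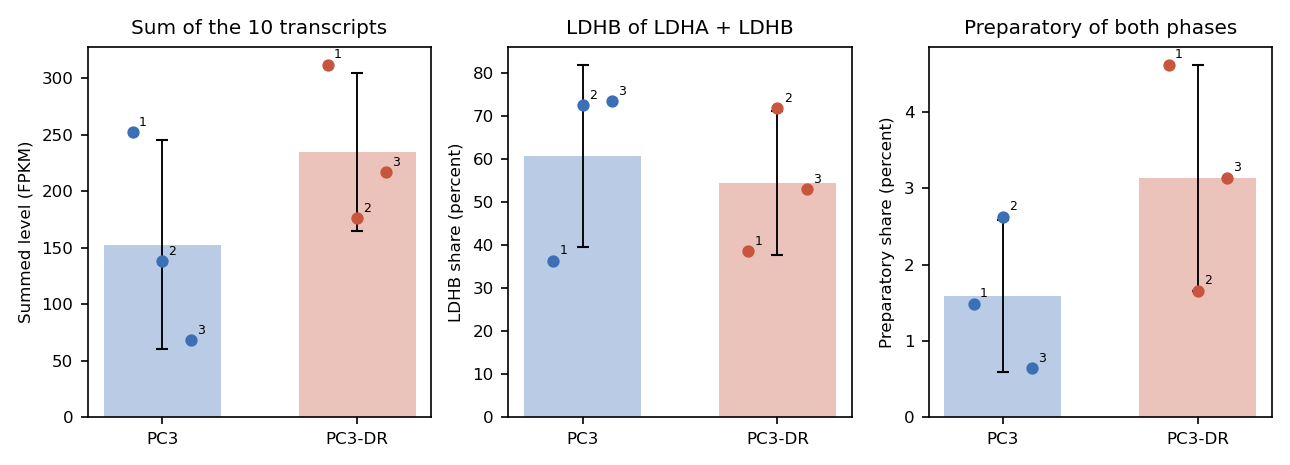
Summed level of the 10 transcripts in FPKM, LDHB as a percent of LDHA plus LDHB, and the preparatory share of the preparatory and payoff sum in percent (vertical axes from 0), with bars for means, error bars for SD and points for the 3 libraries of each line with their replicate number. In all 3 panels the lines overlap, as for LDHB, with 36.4% to 73.4% in PC3 and 38.6% to 71.8% in PC3-DR.

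The transcripts most like the members in pattern were sought by Pearson correlation over the 6 libraries with the mean log2(FPKM + 1) of the 10 members. GPI and ALDOA, which stayed out of the test, were part of that mean. The 3 highest of 24929 others were ENST00000216190 (0.9983), ENST00000360001 (0.9983) and ENST00000305877 (0.9981), none of which the tables used here pair with a gene. ENST00000216190 stood at 5.07, 3.55 and 1.42 FPKM in the PC3 libraries, compared with 8.84, 4.31 and 5.89 FPKM for PC3-DR, lowest in PC3 replicate 3 and highest in PC3-DR replicate 1 like ENO1. A correlation of at least 0.95 was reached by 453 of all these transcripts, or 1.82%, without a count among those of similar level. Among the members themselves it was 0.994 for ENO1, 0.986 for PGAM1, 0.977 for PGK1, 0.972 for PKM, 0.925 for TPI1, 0.819 for GAPDH, 0.655 for LDHA and -0.46 for LDHB, each of which is part of the mean it was compared with. PC3 replicate 3 and PC3-DR replicate 1 are the extremes of that pattern, and these likenesses were not computed without them.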

How the data were processed

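Total RNA libraries of PC3 and PC3-DR, 3 each, were sequenced on Illumina libraries. The authors deposited 2 normalized tables whose columns carry the sample titles, and 0 columns belonged to no sample. Per the submitters' processing notes, the tools were HISAT2 and TopHat2 (aligners), StringTie (assembler), featureCounts, DESeq and limma, with fastp, FastQC and bcl2fastq, and the build was the mouse build mm9, although the organism is human. Which tool made these tables, the annotation and the strand setting are not stated there. The unit of the deposited values was taken as FPKM from the values themselves.

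A whole length between 200 and 60000 nt gave whole reads, within 0.0557 of a read, for 99.99% of the 71088 mRNA-table transcripts that 3 or more libraries list above 0. In simulated data totals were found and 94.5% of lengths returned, and 94.6% among better-read transcripts. The simulated lengths were the ones found here, so this cannot show whether a found length is a fraction of the true one. Transcripts with few reads can return such a fraction. Whether the totals count reads or fragments is unknown.

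Those that reached 1 FPKM in 3 or more of the 6 libraries entered 1 fit on log2(FPKM + 1) in limma 3.58.1 (R 4.3.3), with the trend option, group as the sole term, two-sided, with Benjamini-Hochberg adjustment over all 24937. This scale understates changes of low transcripts. On simulated reads, where 21195 transcripts were tested, this fit recovered 40% of the 65 tested transcripts changed 4-fold and 97.7% of the 86 changed 16-fold, with 6 false calls. The simulation gave all transcripts 1 common spread beyond counting error and shifted no library as a whole. Its shares therefore need not hold for these libraries. Per-library sums and shares were compared by exact permutation over libraries. Named transcripts are the 10 members and the 3 most alike. Members and lists were chosen with earlier results of these data known. Lists of further pathway genes and of cell markers were not used because transcript identifiers are unpaired. Alternatives covered pseudocount, filter, scaling, trend, robust fit, block, voom and left-out libraries. Pairs of libraries shared at most 0.00125% of values above 0, so all 6 were kept. Python 3.11.15, NumPy 2.4.6, pandas 2.3.3 and matplotlib 3.10.9 were used.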

Additional observations from a re-analysis of the deposited data

How the results depend on the processing

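Across 18 alternatives 0 members passed in limma, with the lowest adjusted p among members between 0.476 and 0.998, where between 0 and 6 of all tested transcripts passed. The joint removal of PC3 replicate 3 and PC3-DR replicate 1 and the rescaling over 117 transcripts were chosen after seeing the data. PKM, ENO1 and PGAM1 kept a difference above 0 in all 18, between 0.46 and 1.71, 0.14 and 1.49, and 0.12 and 1.16. Of the 794 transcripts that reached 5 FPKM in 3 or more libraries, between 74.6% and 85.3% were above 0 with 1 library left out. Without both libraries 67.0% were. How many of the 794 stay above 0 in all 18 was not counted. Directions turned for the other tested members, and the cause was not tested. Quantile normalization gave -0.56 for GAPDH, -0.18 for LDHA and -0.7 for LDHB, rescaling over 117 transcripts -0.41, -0.32 and -0.68 for these and -0.03 for PGK1, and voom -0.18 for LDHB. Without both libraries named above TPI1 had -0.04, GAPDH -0.52, PGK1 -0.03 and the LDHB share a difference of 7.94 percentage points, while LDHB kept its direction and moved to 0.57. Leaving out single libraries gave between -0.22 (without PC3 replicate 3) and 1.1 for GAPDH, 0.27 and 1.34 for TPI1, 0.24 and 0.87 for PGK1, 0.02 and 0.9 for LDHA, -0.27 and 0.51 for LDHB, and between -18.5 and 1.59 percentage points for the LDHB share. TPI1 had no value with a filter of 5 FPKM. Same-numbered libraries did not deviate together throughout (correlations 0.192, -0.004 and 0.093). Deviations from the mean of 3 libraries offset one another, so these values cannot show whether same-numbered libraries shared a preparation. With the replicate block 0 members passed in limma (lowest adjusted p = 0.659, 2 of 8 at an unadjusted p under 0.05, against 6.85% of all tested, of which 0 passed), and exact sign-flip tests gave p = 0.25 for the sum of 81.9 FPKM, 0.75 for the LDHB share and 0.5 for the preparatory share, where 0.25 is the smallest p. Low read numbers limit GPI in every library and ALDOA in PC3 and in PC3-DR replicate 3. ALDOA had 712 and 35 reads in PC3-DR replicates 1 and 2, so the libraries of that line disagreed.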
